A study of Homo sapiens and Mus musculus with 22 samples.

Results

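Heat shock proteins and J-domain proteins are chaperones, which bind other proteins while these fold, assemble or are broken down. The genes described here were those whose symbol began with HSPA, HSPB, DNAJA, DNAJB or DNAJC and a digit, together with HSP90AA1, HSP90AB1, HSPH1, HSPD1, HSPE1, HSF1, HSF2 and BAG3. HSPA5, DNAJB9, DNAJB11 and DNAJC3, chaperones of the endoplasmic reticulum (ER) that rise in its stress response, were left out by that rule. A gene also needed an FPKM (fragments mapped to a gene, scaled by its length and by the depth of the library) of at least 1 in at least 1 value. In all, 62 of 34015 gene symbols were members, 55 of them in the human line, 55 in the mouse line and 48 in both. Under the FPKM limit fell 20 further human and 15 further mouse names. Just inside it were HSPB7, with a highest FPKM of 1.16, and Hspb9, with 1.10, and just outside it were DNAJC12, with 0.824, and mouse Hspb3, with 0.717. Most members work in the cytosol, but the rule also took mitochondrial chaperones (HSPA9, HSPD1, DNAJA3), ER chaperones (HSPA13, DNAJC1, DNAJC10, DNAJB12, DNAJB14) and the nuclear histone chaperone DNAJC9, so the set is wider than the cytosol.

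HSP70 proteins (the HSPA genes) bind unfolded segments of a client and hold it while ATP is split. J-domain proteins (the DNAJ genes) bring clients to HSP70 and start that ATP step, and exchange factors such as BAG3 and the HSP110 proteins (HSPH1, HSPA4, HSPA4L) end it. HSP90 takes over clients late in their folding, small heat shock proteins (the HSPB genes) hold unfolded proteins without ATP, and HSPD1 with HSPE1 forms the folding chamber of mitochondria. HSF1 is the transcription factor that raises many of these genes when unfolded proteins pile up in heat-stressed cells, and HSF2 is its relative. BAG3 and HSPB8 form a complex with HSP70 that hands proteins over to autophagy.

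RNA was measured by poly(A) RNA sequencing in 2 established cell lines, U2OS (human osteosarcoma) and L929 (mouse fibroblast). In U2OS, 1 set held wild type (WT) cells and the knockouts KO1 and KO2 of SETDB1, an H3K9 methyltransferase, all labelled mock, with 2 libraries per group. A second U2OS set held Vector cells and cells with a knockdown (KD) of ATG5, a gene needed for autophagy, each mock or with 10 µM BIX-01294 (BIX), for 12 h, a compound that blocks the H3K9 methyltransferases EHMT1 (GLP) and EHMT2 (G9a). The L929 set held cGAS WT and cGAS knockout (KO) cells, again mock or with the same BIX treatment, cGAS being a sensor of cytosolic DNA. The ATG5 and cGAS sets had 1 value per group, and the label of each ATG5 value says that it stands for 2 replicates. The treatment note of every RNA sample names BIX, while titles separate mock from BIX; the titles were followed here, and what was given to mock cells is not stated in those labels. Nor do they say how the knockouts and the knockdown were made, or whether a line was 1 clone.

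Because HSF1 acts through heat shock elements, promoters of 4 members on which the results turn are shown, from RefSeq (GRCh38.p14), 250 bases before to 50 bases after the start, on the gene's strand. HSPB8 had the largest rise with BIX, DNAJB6 rose in both lines, and HSPA8 and HSP90AA1 fell in U2OS. Capitals mark heat shock elements, in which the unit GAA and its reverse complement TTC alternate with any 2 bases between them, found on either strand in a form of 3 units (starting with GAA or with TTC) or in a looser form of 2 units, which lies within the first. The promoters lie at chr12:119178681-119178980 (HSPB8, plus strand), chr7:157336754-157337053 (DNAJB6, plus strand), chr11:123062087-123062386 (HSPA8, minus strand) and chr14:102086995-102087294 (HSP90AA1, minus strand; the table's other HSP90AA1 start is not shown).
HSPB8: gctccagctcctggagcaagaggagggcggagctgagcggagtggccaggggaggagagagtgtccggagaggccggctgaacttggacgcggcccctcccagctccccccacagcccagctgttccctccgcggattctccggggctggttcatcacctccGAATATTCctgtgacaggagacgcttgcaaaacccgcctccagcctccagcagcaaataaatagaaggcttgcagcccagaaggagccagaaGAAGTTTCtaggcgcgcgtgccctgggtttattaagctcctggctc
DNAJB6: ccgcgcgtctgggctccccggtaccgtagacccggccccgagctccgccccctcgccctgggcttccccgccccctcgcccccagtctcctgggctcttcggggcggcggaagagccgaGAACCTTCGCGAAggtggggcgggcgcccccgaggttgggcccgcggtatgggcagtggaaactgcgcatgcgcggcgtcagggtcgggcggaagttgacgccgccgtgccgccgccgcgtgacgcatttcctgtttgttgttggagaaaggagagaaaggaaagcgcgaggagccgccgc
HSPA8: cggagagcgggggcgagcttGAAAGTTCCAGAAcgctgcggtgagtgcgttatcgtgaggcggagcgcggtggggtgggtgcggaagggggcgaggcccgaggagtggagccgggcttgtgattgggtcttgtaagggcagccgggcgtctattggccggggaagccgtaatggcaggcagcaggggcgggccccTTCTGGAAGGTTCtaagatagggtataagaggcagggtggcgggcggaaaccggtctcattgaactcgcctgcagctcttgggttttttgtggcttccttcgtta
HSP90AA1: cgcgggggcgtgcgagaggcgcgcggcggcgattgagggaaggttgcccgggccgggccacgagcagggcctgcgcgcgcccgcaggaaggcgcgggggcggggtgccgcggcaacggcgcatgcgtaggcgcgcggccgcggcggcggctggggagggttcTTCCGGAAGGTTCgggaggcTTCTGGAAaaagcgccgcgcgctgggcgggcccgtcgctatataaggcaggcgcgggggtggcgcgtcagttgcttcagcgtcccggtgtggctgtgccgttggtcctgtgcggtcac

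The 3-unit form was found in 172 of the 35116 promoters of the table (0.49%) and in 6 of the 66 promoters of human members (9.09%), those of HSPA8, HSP90AA1, HSP90AB1, HSPD1, DNAJA1 and DNAJB6. HSPB8 held only 2-unit parts, which were in 13.5% of all promoters and 27.3% of the members' promoters. The 66 promoters belonged to 48 of the 55 human members, and HSPB11, DNAJC1, DNAJC24, HSPA14, HSPA12B, DNAJC22 and HSF1 had no entry. The genes with a 3-unit match did not share 1 response in the data below. With BIX in U2OS, DNAJB6 rose, HSPA8 and HSP90AA1 fell, and HSP90AB1 and HSPD1 did not pass the test. DNAJA1 was not in that test, since its mouse locus was joined with a microRNA. It went from 161 to 120 FPKM with BIX in Vector and from 206 to 172 in ATG5 KD.

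Mesenchymal markers were at an FPKM of at least 1 in every value for 6 of the 7 found in the human tables and 7 of 8 in L929. Leukocyte markers summed to 0.147 to 3.24 FPKM and endothelial markers to 0.168 to 3.60. Of the epithelial markers, 3 of 6 in the SETDB1 set and 3 of 5 in the ATG5 set were at an FPKM of at least 1 in every U2OS value, and the list summed to 599 to 1170 FPKM in U2OS against 0.326 to 1.75 in L929. SETDB1 RNA was at 9.98 and 9.32 FPKM in WT, 5.90 and 7.03 in KO1, and 6.89 and 7.35 in KO2. ATG5 was at 11.3 FPKM in Vector mock, 10.1 in the mock value labelled ATG5 KD, 12.3 in Vector BIX and 13.4 in the BIX value labelled ATG5 KD, so that it was not lower there with BIX. Mb21d1, which encodes cGAS, was at 2.82 FPKM in WT mock and 1.19 in the mock library labelled KO, but at 3.47 in WT BIX and 4.41 in the BIX library labelled KO. The FPKM tables give no read totals; small FPKM values lie in steps that put the cGAS WT BIX library at 0.738 of the reads of the BIX library labelled cGAS KO, and the other L929 libraries at 0.989 and 0.997 of it.

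Several members could not be read as single genes. The near-identical human copies HSPA1A and HSPA1B, the classic heat-induced HSP70 genes, were listed at no more than 0.253 FPKM in U2OS, and reads that fit both copies may be missing from both, so that nothing is said of their level. HSPA6, another heat-induced HSP70, was at 0.127 to 0.250 FPKM in the SETDB1 set. In the ATG5 set DNAJB7, DNAJC4, DNAJC9, DNAJC17 and DNAJC25 were joined with neighbouring genes into 1 locus, as DNAJC25 also was in the SETDB1 set. Mouse Dnaja1 was joined with a microRNA, and human HSPE1 with MOB4. Mouse Hspb1 was listed at 0 in 3 of 4 values and at 0.238 in the other, whereas human HSPB1 was among the highest members (1299 to 1483 FPKM in the ATG5 set).

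Loss of SETDB1 was the first comparison, and no member passed the test in it. HSPA8, the constitutive cytosolic HSP70, was at 808 and 823 FPKM in WT, 793 and 795 in KO1, and 867 and 808 in KO2. HSPB1, the most abundant small heat shock protein, was at 1427 and 1731 FPKM in WT, 1569 and 1498 in KO1, and 1667 and 1731 in KO2. In both genes the WT and KO libraries overlapped. HSP90AB1, the constitutive HSP90, was at 1030 and 1160 FPKM in WT, 940 and 1036 in KO1, and 1019 and 1017 in KO2, again with overlap. BAG3 was at 22.03 and 22.4 FPKM in WT and 19.9 to 23.9 in the KO libraries, and HSPB8 at 42.9 and 38.8 in WT against 42.5 to 48.5. HSF1 was at 120 and 116 FPKM in WT and 107 to 124 in the KO libraries, and HSF2 at 15.6 and 15.8 against 15.7 to 16.5.

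Of 54 members tested, 0 passed an adjusted p of 0.05 (limma on log2(FPKM + 1), Benjamini-Hochberg) in the mean of the KOs against WT, where 3.22% of 12621 genes passed. The count was also 0 of 54 in KO1 (2.38% of all genes), in KO2 (2.39%) and between KO1 and KO2 (0.0%). At an unadjusted p under 0.05, 1, 1, 2 and 1 members stood out in these 4 contrasts, against 11.8%, 9.55%, 9.83% and 1.65% of all genes. The members' median difference in the mean of the KOs was -0.0046 on the log2 scale, and that of all genes -0.011. Estimates ran from a fall of HSPB3 (-0.44) to a rise of DNAJC4 (0.21), with a median SE of 0.108. Whether the replicates were separate cultures is not given, so p-values measure only the spread between these libraries, which may be technical.

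The member nearest the threshold was DNAJC22, a little-studied J-domain gene. It was at 4.63 and 4.92 FPKM in WT, 3.91 and 3.62 in KO1, and 2.998 and 3.39 in KO2. All 4 KO libraries were below both WT libraries, but the difference (-0.37 on the log2 scale, SE 0.114) had an adjusted p of 0.14 in limma. KO libraries lay below both WT libraries in 5 of 54 members, which were DNAJB1, DNAJC9, DNAJC22, HSPA12A and HSPB7, and in 11.2% of all genes. They lay above in 1 member, DNAJA3, and in 10.2% of all genes. DNAJC9, which carries histones H3 and H4 and is of interest in a study of histone H3, was at 109 and 103 FPKM in WT, 91.9 and 92.0 in KO1, and 99.4 and 84.2 in KO2. A list of 13 heat-inducible genes was made by hand, and it also holds the constitutive HSPA8 and HSP90AB1. Of its genes, 9 were measurable here, 0 were called, and their median difference was -0.10. DNAJB1, the heat-induced partner of HSP70, was at 87.4 and 93.3 FPKM in WT and at 81.4 to 85.8 in the KO libraries.

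**Figure D1:**
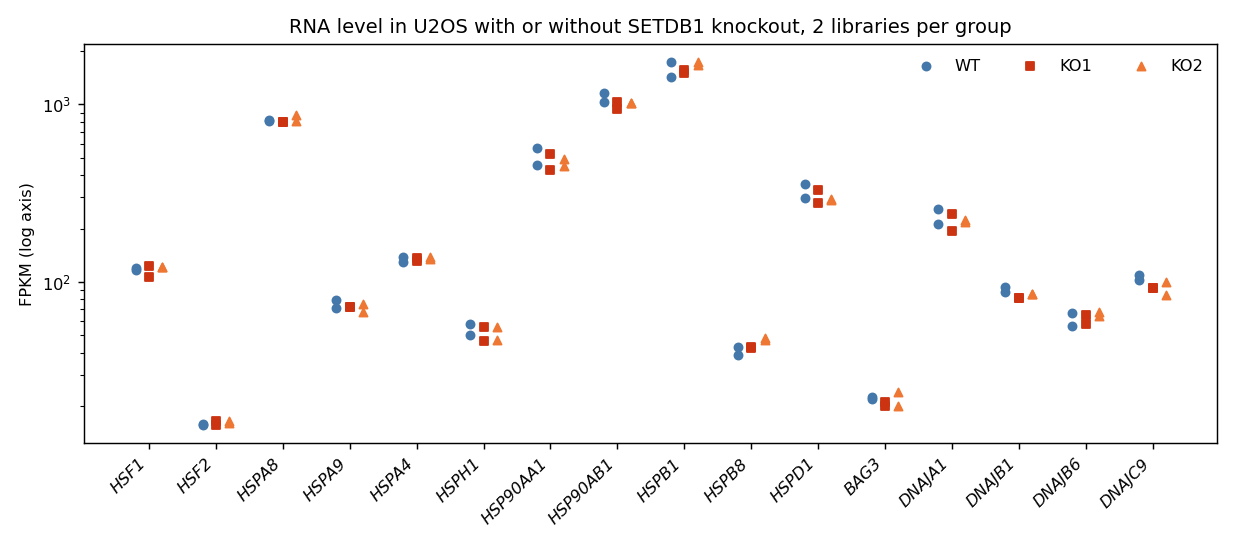
FPKM (log axis) of 16 chaperone genes in each U2OS library of the SETDB1 set, 2 libraries for each of WT (circles), KO1 (squares) and KO2 (triangles). The symbols of the 3 groups lie close together for each gene, and no member passed the test.

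BIX changed single chaperones strongly and in different directions. HSPB8 and its partner BAG3, HSF2, DNAJB6, DNAJA2 and the mitochondrial HSPA9 rose in the mean of both lines, and the J-domain genes DNAJC10, DNAJC14, DNAJC16 and DNAJC30 fell. Of the heat-inducible list, HSPH1 and HSP90AA1 fell in U2OS and rose in L929. The constitutive HSPA8, also on that list, fell in U2OS. HSPD1, DNAJB1 and the constitutive HSP90AB1 passed in neither line. Each of the 4 backgrounds (Vector, ATG5 KD, cGAS WT, cGAS KO) gave 1 log2 ratio of BIX to mock, and limma was fitted on these 4 ratios for genes listed under the same symbol in both species. Of 52 members tested, 15 passed across the 4 backgrounds, 10 of them higher and 5 lower, that is 28.8%, where 21.7% of 10113 genes passed (11.7% higher and 9.99% lower). The members' median ratio was 0.099 and that of all genes -0.011. In U2OS alone 22 of 52 (42.3%) passed (16 higher, 6 lower) against 41.0% of all genes (22.0% higher, 19.1% lower), and in L929 27 of 52 (51.9%; 16 higher, 11 lower) against 41.5% (19.0% and 22.5%). The families were not tested as sets, and the account below is of single genes. The backgrounds within a line differ in genotype, and the spread rests on 2 ratios per line. Without Vector or without ATG5 KD, 0 genes of the whole table passed in either line or in the difference between the lines, and 2 members, HSPB8 and DNAJB6, passed across the rest. These were 2 of 51 members, beside 4.72% of all genes without Vector and 3.49% without ATG5 KD. Without cGAS KO 8 of 51 members passed across the rest (12.0% of all genes). With no filter on low values 11 of 55 members passed across the 4 backgrounds (11.6% of all genes), 19 in U2OS (29.6%) and 20 in L929 (28.7%).

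**Figure D2:**
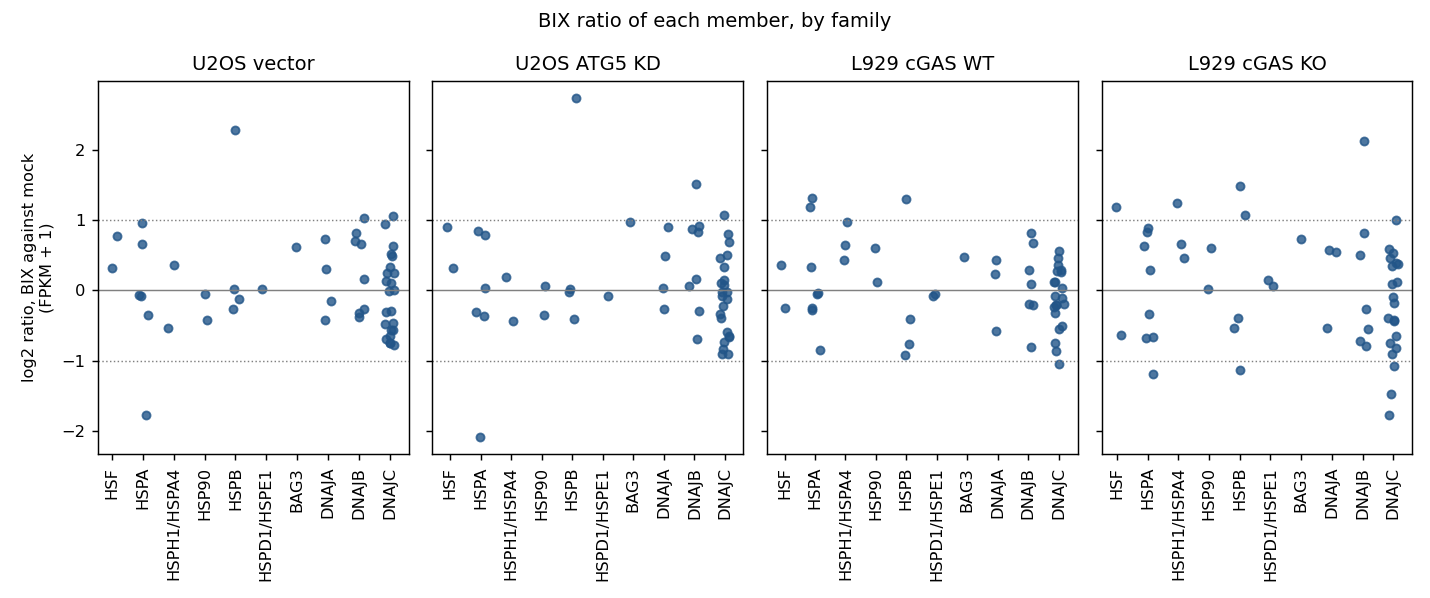
Log2 ratio of BIX to mock, from FPKM + 1, for each chaperone gene by family in each of the 4 backgrounds, 1 point per gene, dotted lines at a ratio of 2-fold. Most points lie within 2-fold; HSPB8 stands highest in U2OS (2.28 and 2.74) and HSPA8 lowest (-1.76 and -2.08).

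HSPB8 is the small heat shock protein that works with BAG3. It went from 27.0 to 135 FPKM in Vector, from 32.5 to 223 in ATG5 KD, from 112 to 276 in cGAS WT and from 118 to 334 in cGAS KO. Every BIX value lay above every mock value, those of the other line included. Its mean log2 ratio across the 4 backgrounds was 1.95 (SE 0.251, limma adjusted p = 0.00891), with 2.51 in U2OS (adjusted p = 0.00409) and 1.39 in L929 (adjusted p = 0.00518). Without Vector or ATG5 KD its adjusted p across the rest was 0.0374 and 0.0416.

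BAG3, the exchange factor of that complex, went from 23.7 to 36.9 FPKM in Vector, from 24.7 to 49.6 in ATG5 KD, from 55.6 to 78.0 in cGAS WT and from 56.3 to 93.8 in cGAS KO. It was higher with BIX in 4 of 4 backgrounds, and its mean log2 ratio was 0.70 (limma adjusted p = 0.0147). Without Vector its adjusted p was 0.0598, and without ATG5 KD 0.0645.

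The 2 transcription factors of the family differed. HSF2 went from 14.3 to 25.2 FPKM in Vector, from 12.7 to 24.5 in ATG5 KD, from 7.86 to 10.4 in cGAS WT and from 7.97 to 19.3 in cGAS KO. It rose in 4 of 4 backgrounds, by 0.80 in the mean (limma adjusted p = 0.022; between 0.0326 and 0.0918 with 1 background left out). HSF1 went from 108 to 135 FPKM in Vector and from 111 to 140 in ATG5 KD, but from 58.3 to 48.9 in cGAS WT and from 63.3 to 40.4 in cGAS KO. HSF1 was thus higher in both U2OS backgrounds, where its ratio of 0.32 had an adjusted p of 0.0895, and lower in both L929 backgrounds, where the fall of 0.44 passed (adjusted p = 0.0409 in limma); without cGAS KO the ratio was -0.25 (adjusted p = 0.0799), and with no filter on low values the adjusted p was 0.0642.

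Among the HSP70 proteins HSPA8 moved most. It went from 664 to 195 FPKM in Vector and from 794 to 186 in ATG5 KD, and from 1865 to 1800 in cGAS WT and from 1479 to 939 in cGAS KO. The mean U2OS ratio was -1.92 on the log2 scale (limma adjusted p = 0.00465), and the L929 ratio of -0.35 did not pass (adjusted p = 0.168). The ratio across the 4 backgrounds, -1.14, did not pass either (adjusted p = 0.0605), but passed when the fit was limited to genes at an FPKM of at least 1 in at least 2 values of each line. HSPA9, the HSP70 of mitochondria, went from 61.2 to 119 FPKM in Vector, from 67.2 to 121 in ATG5 KD, from 484 to 612 in cGAS WT and from 335 to 520 in cGAS KO. It rose by 0.69 in the mean (limma adjusted p = 0.0151; 0.0598 without Vector and 0.0643 without ATG5 KD). HSPA14, an HSP70 relative bound to ribosomes, rose in U2OS (17.6 to 28.3 FPKM in Vector and 19.7 to 34.8 in ATG5 KD; ratio 0.72, adjusted p = 0.0236 in limma). In L929 it went from 48.4 to 40.5 FPKM in cGAS WT and from 49.0 to 60.2 in cGAS KO, in opposite directions. HSPA12B, a distant HSP70 relative, was at no more than 2.04 FPKM in any value. HSPA13, an ER member, stayed between 22.8 and 24.4 FPKM in U2OS.

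Mouse Hspa1b, a heat-induced HSP70 gene, went from 4.86 to 13.6 FPKM in cGAS WT and from 7.34 to 14.5 in cGAS KO. Its neighbour Hspa1a, nearly identical, went from 0.370 to 2.12 FPKM in cGAS WT and from 0.200 to 0.133 in cGAS KO, and how reads were split between the copies is uncertain. The Hspa1b ratio in L929 was 1.10 (limma adjusted p = 0.00701). Even with BIX it was far under Hspa8 in FPKM.

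The HSP110 proteins are exchange factors related to HSP70. Hsph1, the heat-induced one, went from 48.4 to 96.3 FPKM in cGAS WT and from 29.1 to 70.2 in cGAS KO, while HSPH1 in U2OS went from 45.5 to 31.0 in Vector and from 51.2 to 37.6 in ATG5 KD. The L929 ratio was 1.11 (limma adjusted p = 0.00504) and the U2OS ratio -0.49 (adjusted p = 0.0242). HSPA4 went from 99.4 to 128 FPKM in Vector, from 116 to 133 in ATG5 KD, from 91.8 to 124 in cGAS WT and from 75.5 to 104 in cGAS KO, and its mean ratio of 0.36 passed (adjusted p = 0.0391 in limma; 0.0847 to 0.132 with 1 background left out). Mouse Hspa4l went from 12.0 to 19.4 FPKM in cGAS WT and from 11.8 to 19.1 in cGAS KO (ratio 0.65, adjusted p = 0.00952 in limma). All 3 HSP110 genes passed in L929, where 41.5% of all genes passed. Human HSPA4L was at no more than 0.0289 FPKM in the ATG5 set, so that 2 of the genes could be read in U2OS, where HSPH1 passed, with a fall, and HSPA4 did not.

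HSP90AA1, the heat-induced cytosolic HSP90, also parted by line. It went from 367 to 275 FPKM in Vector and from 464 to 366 in ATG5 KD, but from 291 to 443 in cGAS WT and from 284 to 431 in cGAS KO. The U2OS ratio was -0.38 (limma adjusted p = 0.0161) and the L929 ratio 0.60 (adjusted p = 0.00621). Its constitutive sister HSP90AB1 stayed between 848 and 1113 FPKM in U2OS and between 1636 and 1776 in L929. The HSP90AB1 ratio did not pass in either line (adjusted p = 0.967 in U2OS and 0.469 in L929, limma).

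Apart from HSPB8, no small heat shock gene tested passed with a rise. HSPB1 went from 1299 to 1323 FPKM in Vector and from 1455 to 1483 in ATG5 KD. Mouse Hspb6, abundant in muscle, went from 101 to 59.5 FPKM in cGAS WT and from 65.3 to 29.4 in cGAS KO (ratio -0.94, limma adjusted p = 0.00902). Hspb7 went from 5.38 to 2.37 and from 1.65 to 0.841 (ratio -0.72, limma adjusted p = 0.0136), and Hspb11, which works in cilia, from 15.1 to 11.1 and from 21.6 to 16.2 (ratio -0.40, adjusted p = 0.0231). Human HSPB7 (0.128 to 0.282 FPKM in the ATG5 set) and mouse Hspb1 were too low to read. HSPB genes at an FPKM of at least 1 in at least 2 values of each line were 3 (HSPB6, HSPB8 and HSPB11). Of these, 1 rose and 2 fell in L929, and 1, HSPB8, rose in U2OS. Of all genes so limited, 53.8% passed in L929 and 45.4% in U2OS.

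Of the folding chamber of mitochondria, HSPD1 alone was in the fit, since human HSPE1 was joined with MOB4. HSPD1 was at 219 and 223 FPKM in Vector mock and BIX, 286 and 270 in ATG5 KD, 609 and 589 in cGAS WT and 387 and 430 in cGAS KO, and did not pass in either line (adjusted p = 0.824 in U2OS and 0.699 in L929, limma). Mouse Hspe1, its cap, was at 226 to 270 FPKM.

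**Figure D3:**
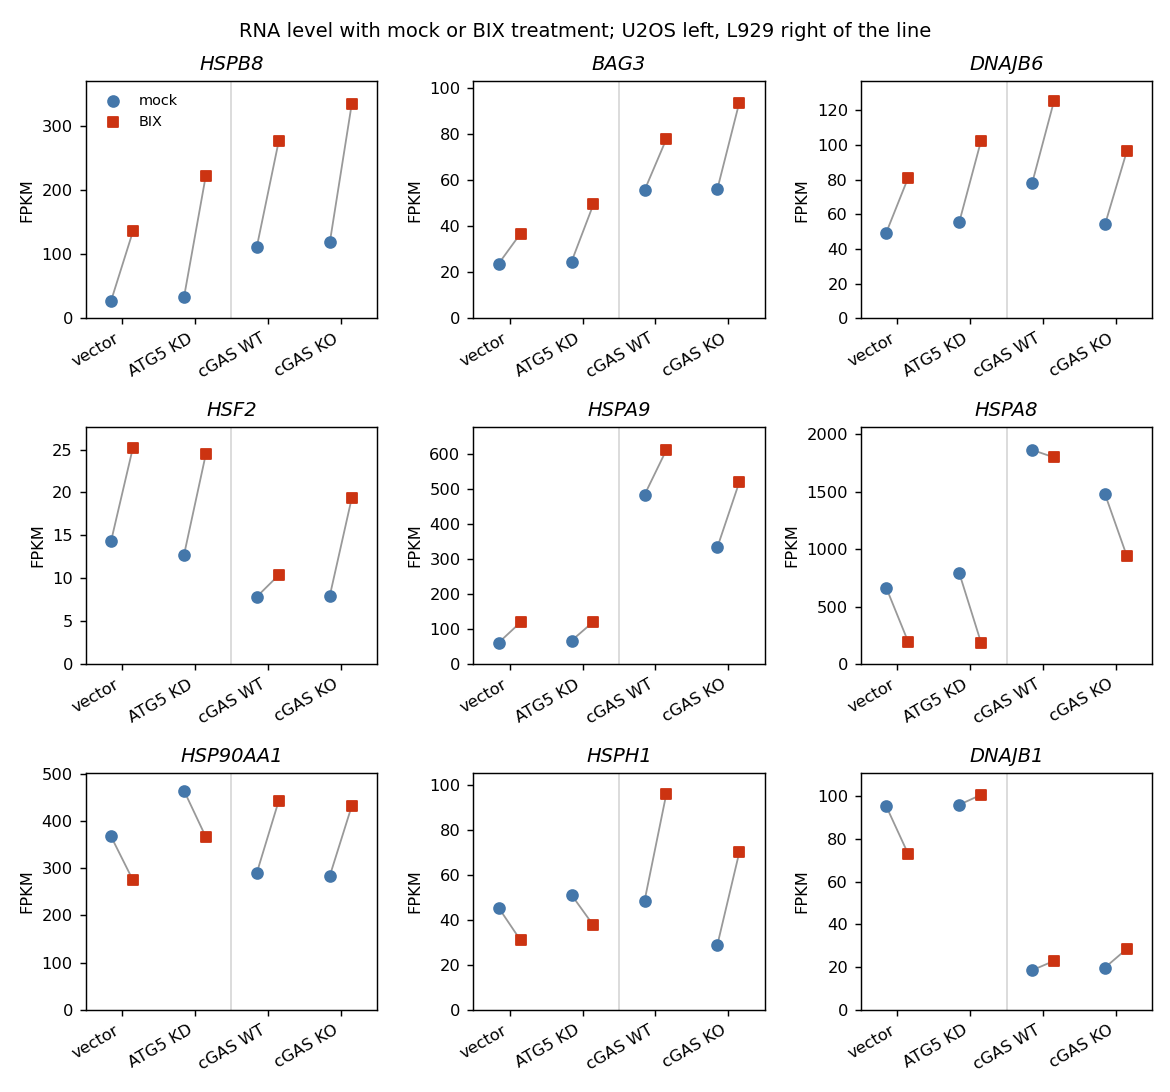
FPKM of 9 chaperone genes in each of the 8 values of the ATG5 and cGAS sets, mock (circle) joined to BIX (square) in the same background, 1 value each, U2OS left and L929 right of the line. HSPB8, BAG3, DNAJB6, HSF2 and HSPA9 go up in 4 of 4 backgrounds; HSP90AA1 and HSPH1 go down in U2OS and up in L929.

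The A and B classes of J-domain proteins are the general partners of HSP70. Of the 10 tested, 2 rose and 0 fell across the 4 backgrounds, 6 rose and 0 fell in U2OS, and 3 rose and 2 fell in L929. Of all genes, 11.7% rose and 9.99% fell across the 4 backgrounds, 22.0% and 19.1% in U2OS, and 19.0% and 22.5% in L929. DNAJB6, which keeps aggregation-prone proteins apart, went from 49.5 to 81.1 FPKM in Vector, from 55.4 to 103 in ATG5 KD, from 78.0 to 125 in cGAS WT and from 54.2 to 96.7 in cGAS KO. The 4 ratios were alike, 0.70, 0.88, 0.68 and 0.82, with a mean of 0.77 (limma adjusted p = 0.00784; between 0.0281 and 0.048 with 1 background left out). DNAJA2 went from 23.6 to 39.7 FPKM in Vector, from 24.4 to 46.5 in ATG5 KD, from 37.5 to 50.9 in cGAS WT and from 55.0 to 80.8 in cGAS KO (mean ratio 0.65, limma adjusted p = 0.0177; 0.078 without Vector and 0.0749 without ATG5 KD). DNAJA1, which is heat-inducible, went from 161 to 120.0 FPKM in Vector and from 206 to 172 in ATG5 KD; the mouse locus with Dnaja1 went from 51.1 to 60.2 and from 42.3 to 63.6. DNAJA3, a mitochondrial member, fell in L929, from 40.7 to 26.9 FPKM in cGAS WT and from 27.8 to 19.0 in cGAS KO (ratio -0.55, limma adjusted p = 0.0149), and stayed between 14.9 and 17.9 FPKM in U2OS.

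The heat-induced DNAJB1 did not pass in either line, though it passed in L929 when the fit was limited to genes at an FPKM of at least 1 in at least 2 values of each line. It went from 95.3 to 73.1 FPKM in Vector, from 96.1 to 101 in ATG5 KD, from 18.6 to 22.9 in cGAS WT and from 19.8 to 28.6 in cGAS KO (adjusted p = 0.428 in U2OS and 0.0828 in L929, limma). Mouse Dnajb4, its close relative, went from 15.7 to 28.4 FPKM in cGAS WT and from 14.2 to 65.3 in cGAS KO, and DNAJB4 in U2OS from 12.8 to 10.1 and from 15.7 to 12.6. Its L929 ratio was 1.47 (limma adjusted p = 0.0233), 0.82 without cGAS KO and 2.13 without cGAS WT, and with no filter on low values its adjusted p was 0.0516 (limma). DNAJB5 went from 21.0 to 37.7 FPKM in Vector and from 25.0 to 73.4 in ATG5 KD (ratio 1.17, limma adjusted p = 0.0202), and in L929 from 4.63 to 3.93 and from 5.25 to 2.62. DNAJB14, anchored in the ER membrane, went from 6.69 to 14.7 FPKM and from 8.15 to 16.3 in U2OS, and from 4.43 to 2.12 and from 6.05 to 3.28 in L929. Both of its line ratios passed in limma, 0.97 in U2OS (adjusted p = 0.00582) and -0.76 in L929 (adjusted p = 0.00858). DNAJB2, abundant in neurons, went from 60.5 to 96.0 FPKM and from 86.1 to 154 in U2OS (ratio 0.74, limma adjusted p = 0.0128), and from 19.0 to 20.3 and from 13.8 to 11.4 in L929.

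The C class, whose members mostly serve 1 place or 1 client each, had calls in both directions. Of 19 tested across the 4 backgrounds, 3 rose and 4 fell, where 11.7% of all genes rose and 9.99% fell. DNAJC8, a splicing-associated gene, rose from 102 to 158 FPKM in Vector, from 107 to 188 in ATG5 KD, from 89.0 to 109 in cGAS WT and from 98.7 to 129 in cGAS KO (mean ratio 0.52, limma adjusted p = 0.0273). DNAJC21, needed for ribosome assembly, and DNAJC7, which binds HSP70 and HSP90, also rose (0.48 and 0.43; limma adjusted p = 0.0215 and 0.0471). With 1 background left out, the adjusted p of these 3 genes reached 0.103, 0.0969 and 0.153. DNAJC2, a ribosome-bound member, went from 27.1 to 53.3 FPKM in Vector and from 31.9 to 68.1 in ATG5 KD, but only from 186 to 191 and from 140 to 150 in L929. Its U2OS ratio was 1.01 (limma adjusted p = 0.00453), and its L929 ratio 0.07 (adjusted p = 0.581).

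DNAJC10, an ER protein that reduces disulfides, went from 30.8 to 18.7 FPKM in Vector, from 28.9 to 18.02 in ATG5 KD, from 55.2 to 26.3 in cGAS WT and from 54.8 to 30.8 in cGAS KO. It fell by 0.80 in the mean (limma adjusted p = 0.0109; 0.0511 without Vector and 0.0505 without ATG5 KD) and passed in each line. DNAJC16 went from 4.67 to 3.08 FPKM, from 4.37 to 2.02, from 7.15 to 4.59 and from 6.65 to 1.24 in the same order, and fell by 0.91 (adjusted p = 0.0462 in limma; between 0.0606 and 0.117 with 1 background left out). DNAJC30, a mitochondrial member, went from 7.29 to 3.95 FPKM, from 7.33 to 3.47, from 17.2 to 11.8 and from 19.8 to 6.53, and fell by 0.90 (adjusted p = 0.0226 in limma; 0.0774 without Vector and 0.0849 without ATG5 KD). DNAJC14 fell by 0.58 (adjusted p = 0.0426 in limma), with no call when any 1 background was left out. The remaining gene that fell across the 4 backgrounds was HSPA12B (-0.69; adjusted p = 0.0463 in limma, also lost with any 1 left out). DNAJC13, an endosomal member, fell in U2OS, from 11.5 to 7.46 FPKM and from 12.2 to 7.42 (ratio -0.60, limma adjusted p = 0.0137), and rose in L929, from 18.5 to 24.0 and from 23.1 to 33.7 (ratio 0.44, adjusted p = 0.0285; 0.0683 without cGAS KO). DNAJC6 and DNAJC28, which also passed in U2OS, were low there, with 1.74 to 4.73 and 0.314 to 1.21 FPKM.

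The difference between the lines was tested directly, as the U2OS mean ratio minus the L929 mean ratio. It passed in 16 of 52 members (8 higher and 8 lower in U2OS), against 26.6% of all genes (15.3% and 11.3%). Of the heat-inducible list, 7 genes were at an FPKM of at least 1 in at least 2 values of each line. The constitutive HSPA8 and HSP90AB1 were among them. In a fit limited to such genes, 3 of these 7 had a lower ratio in U2OS (HSPA8, HSPH1 and HSP90AA1) and 0 higher. Of all 7593 genes so limited, 677 had a lower and 1259 a higher ratio. The median difference of the 7 was -0.56 beside 0.11 for all genes so limited. In the full fit the median was -0.28 for HSP90 co-chaperones, -0.18 for the cytosolic folding chamber TRiC and -0.13 for HSP70 co-chaperones. It was 0.16 for prefoldin, 0.23 for ER chaperones and 0.061 for all genes. HSPA1B also passed in the full fit, but it cannot be read in U2OS, so its difference is that of the mouse gene alone. HSPH1 differed by -1.60 on the log2 scale (limma adjusted p = 0.0154), HSPA8 by -1.57 (adjusted p = 0.0202) and HSP90AA1 by -0.98 (adjusted p = 0.0155). DNAJB4 (-1.78, adjusted p = 0.0491) and DNAJC13 (-1.05, adjusted p = 0.0184) also had lower ratios in U2OS, again by limma. DNAJB14 (1.74, adjusted p = 0.0148), DNAJB5 (1.66, adjusted p = 0.0312), HSPB8 (1.12, adjusted p = 0.024), DNAJC2 (0.94, adjusted p = 0.0161), DNAJB2 (0.83, adjusted p = 0.034) and HSF1 (0.76, adjusted p = 0.0366) had higher ratios in U2OS by the same test. The other 4 genes were DNAJC6 and HSPA12B with a higher and DNAJC28 and HSPA4L with a lower ratio in U2OS. They were hardly expressed in at least 1 line, except HSPA12B, which was low (0.638 to 1.30 FPKM in U2OS). When a gene needed an FPKM of at least 1 in at least 2 values of each line, 11 of 42 members differed (25.5% of 7593 genes). They were the 11 genes given here with their p. HSPA12B was among the 42 but did not pass. The lines also differ in species, medium and annotation, and these cannot be told apart from the cell type. The L929 data rest on cGAS WT and KO cells and the U2OS data on Vector and ATG5 KD cells; without either U2OS background no member passed. Without cGAS KO the DNAJB4 difference was -1.13 and that of DNAJB5 did not pass (adjusted p = 0.0622 in limma). With no filter on low values DNAJB2, DNAJB4, DNAJB5 and HSF1 did not pass (limma adjusted p between 0.0529 and 0.0857).

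**Figure D4:**
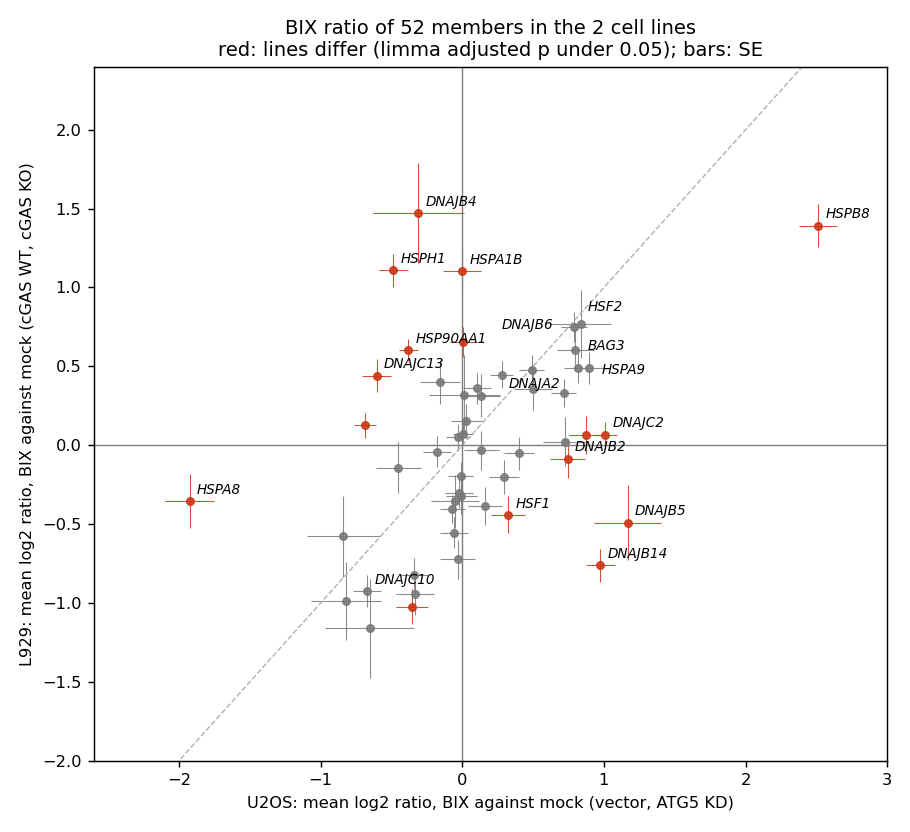
Mean log2 ratio of BIX to mock in U2OS (x axis) against that in L929 (y axis) for 52 chaperone genes, bars showing the SE of each mean and the dashed line equal ratios. Red points passed the test of the difference between the lines; HSPH1 and HSP90AA1 lie upper left, HSPA8 far left, and DNAJB14 and DNAJB5 lower right.

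BIX also moved marker genes of the lines. Across the 4 backgrounds 3 of 7 mesenchymal markers fell and 0 rose (median ratio -0.42). Of 3 epithelial markers 1, KRT8, rose by 0.61 (limma adjusted p = 0.037). It went from 383 to 471 FPKM in Vector and from 486 to 633 in ATG5 KD. Mouse Krt8 was hardly expressed, from 0.217 to 1.16 FPKM in cGAS WT and from 0.107 to 1.12 in cGAS KO. The mean ratio thus rests in part on values too low to read. Of all genes, 9.99% fell and 11.7% rose. In bulk samples fewer cells of a kind and less RNA per cell cannot be told apart, and the part of these changes in the chaperone results was not tested.

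Each background was also read on its own, without replicates and so without a test. Fold was taken on FPKM + 1, so a gene can be 2-fold apart in FPKM and not be counted. At least 2-fold higher or lower with BIX were 3 and 1 of 53 members in Vector (10.6% of all genes were 2-fold apart), 3 and 1 of 53 in ATG5 KD (11.7%), 3 and 1 of 53 in cGAS WT (13.6%), and 6 and 5 of 54 in cGAS KO (22.9%). HSPB8 was the 1 member at least 2-fold higher in all 4. The others were DNAJB14 and DNAJC6 in Vector, DNAJB5 and DNAJC2 in ATG5 KD, and Hspa1a and Hspa1b in cGAS WT. On that scale HSPA8 was the member 2-fold lower in both U2OS backgrounds, and Dnajc10 that in cGAS WT. The low DNAJC28 fell to 0.299 of its mock FPKM in Vector and 0.274 in ATG5 KD, and was not counted. Dnajb4 (2.13), Hsph1 (1.24) and Hsf2 (1.18) had their larger L929 ratios in cGAS KO, as did Dnajc16 (-1.77), Dnajc30 (-1.47), Hspb6 (-1.13) and Dnajc22 (-1.08). Dnajc22 stayed near its mock level in cGAS WT (10.3 to 9.74 FPKM) and went from 12.3 to 5.28 in cGAS KO. Whether cGAS changes the response cannot be tested with 1 library per group, and the cGAS WT BIX library had the fewest reads.

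Cells labelled ATG5 KD differed little from Vector cells. On FPKM + 1, 0 of 53 members were 2-fold apart in mock (0.96% of all genes), and with BIX 0 of 50 (1.86%). Small differences went mostly up: 41 of 53 members were higher in the mock value labelled ATG5 KD, with a median of 0.13 on the log2 scale beside 0.011 for all genes. HSP90AA1 was at 464 FPKM there against 367 in Vector, HSPA8 at 794 against 664, HSPD1 at 286 against 219 and DNAJA1 at 206 against 161. Of other chaperone genes, 12 of 14 HSP90 co-chaperones and 11 of 13 ER chaperones were also higher in that mock value. So were 7 of 7 subunits of TRiC and 5 of 5 prefoldin genes. Of the HSP70 co-chaperones 4 of 9 were higher. The share of all genes that were higher there was not computed, and single values give no spread for these differences. With BIX, HSPB8 was at 223 FPKM in the value labelled ATG5 KD and 135 in Vector, and DNAJB5 at 73.4 and 37.7.

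Between the libraries labelled cGAS KO and cGAS WT, fold was again taken on FPKM + 1. In mock, 0 of 53 members were 2-fold higher and 1 lower (7.83% of all genes were 2-fold apart). The lower member was Hspb7, at 1.65 against 5.38 FPKM. With BIX, 2 of 54 were higher and 3 lower (11.7%). Dnajb4 was higher (65.3 against 28.4 FPKM), as was the low Hspa2 (2.64 against 0.302). Hspa1l, a testis HSP70, was lower (1.91 against 5.75 FPKM), as were Dnajc16 (1.24 against 4.59) and Hspa1a (0.133 against 2.12). Hspa8 was at 1479 against 1865 FPKM in mock and at 939 against 1800 with BIX, and Hsp90aa1 was nearly equal in both pairs.

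Other chaperone genes gave the setting of these results. Among the ER chaperones, 1 of 12 rose with BIX across the 4 backgrounds and 4 fell, with a median ratio of -0.34. Of all genes, 11.7% rose and 9.99% fell, which are the shares to set beside this list and those below. HSPA5, the HSP70 of the ER, went from 190 to 114 FPKM in Vector, from 228 to 162 in ATG5 KD, from 2566 to 1243 in cGAS WT and from 752 to 565 in cGAS KO (limma adjusted p = 0.0161). SDF2L1 fell by 1.54 (limma adjusted p = 0.00961), whereas DNAJB9, an ER J-domain gene, rose by 1.11 (adjusted p = 0.0102). With SETDB1 knockout SDF2L1 was the 1 called gene of the ER list (-0.51, limma adjusted p = 0.02). In mock, 7 of 13 ER chaperones were at least 2-fold lower in the library labelled cGAS KO than in cGAS WT. Of all genes, 7.83% were 2-fold apart between these libraries. HSPA5 was at 752 against 2566 FPKM, so the L929 ratios of ER genes started from unlike levels.

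Of the HSP90 co-chaperones 1 of 13 rose across the 4 backgrounds, CHORDC1 (0.46, limma adjusted p = 0.0337), and 1 fell, AHSA1, the activator of the HSP90 ATPase (-0.61, adjusted p = 0.0317). AHSA1 fell in both lines, from 103 to 51.7 FPKM in Vector and from 167 to 133 in cGAS WT. Of the HSP70 co-chaperones 0 of 9 passed across the 4 backgrounds, at a median of 0.39. In U2OS BAG1 rose by 1.07 (limma adjusted p = 0.00456), from 6.61 to 14.3 FPKM in Vector and from 7.51 to 17.8 in ATG5 KD. The TRiC chaperonin, the cytosolic folding chamber, had 1 of 7 subunits higher (CCT5, 0.32, limma adjusted p = 0.037), and prefoldin, which feeds it, had 3 of 5 higher, led by PFDN2 (0.80, adjusted p = 0.0147). Of heat shock genes outside the families, IER5, a target and partner of HSF1, rose by 1.41 (adjusted p = 0.0271) and more in L929 than in U2OS (difference -1.42, adjusted p = 0.0184, both by limma). SERPINH1, the collagen chaperone, fell by 0.42 (adjusted p = 0.0454 in limma).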

How the data were processed

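RNA-seq tables of 14 RNA samples were used; 8 chromatin immunoprecipitation samples were not analysed here. Per the submitters' processing notes, reads were checked with FastQC, trimmed with cutadapt, aligned with TopHat2 (hg19 or mm10) and quantified with Cufflinks; their versions, the annotation and the strandedness are not stated. The deposited values are FPKM as the authors made them, with no read counts, so depth is unknown beyond relative steps, and every column was used (0 left out). Of repeated symbols the entry with the highest mean was kept; joined loci were kept as 1 gene.

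Tests used limma 3.58.1 (R 4.3.3) on log2(FPKM + 1), with a trend on expression, for genes with FPKM of at least 1 in at least 2 values, without short non-coding RNAs. A fold change on this scale understates that of low genes. Adjusted p-values (Benjamini-Hochberg) cover all genes tested in a comparison, and a gene was called under 0.05. The 6 SETDB1 libraries were fitted together; the 4 BIX ratios were fitted with a common mean or 1 mean per line. The 8 comparisons of single values counted genes at least 2-fold apart in FPKM + 1. The scripts were tested on simulated data.

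The members and lists were chosen with earlier results of these data known. Named genes were the heat-inducible genes, HSF1, HSF2 and DNAJC9, up to 6 called members per direction with the largest difference (4 where untested, with FPKM of at least 5), and up to 3 genes of each other list; others are named to give the members' values and were picked after these were seen. WT, KO1 and KO2 share replicate numbers, and whether these mark a shared batch is not stated. Correlations of deviations between same-numbered libraries were 0.37 (WT and KO1), 0.00377 (WT and KO2) and 0.202 (KO1 and KO2). Ratios of low FPKM values to KO1 library 1 shared 1 step in 17.8% and 18.5% of genes for library 1 of WT and KO2. For library 2 of WT, KO1 and KO2 it was 7.08%, 7.19% and 7.30%. The main fit left the numbers out, and a fit with a replicate block is given below.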

Additional observations from a re-analysis of the deposited data

Results flagged for a closer look

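In 11 chaperone genes at an FPKM of at least 1 in both lines, the test of the difference itself separated the BIX ratio in U2OS from that in L929. That is 11 of 42 members (26.2%), where 25.5% of all genes so limited differed. On the log2 scale, as U2OS minus L929, the difference was 1.74 for DNAJB14, 1.66 for DNAJB5, 1.12 for HSPB8, 0.94 for DNAJC2, 0.83 for DNAJB2 and 0.76 for HSF1. It was -1.78 for DNAJB4, -1.60 for HSPH1, -1.57 for HSPA8, -1.05 for DNAJC13 and -0.98 for HSP90AA1. HSPB8 rose in both lines and differed in size. HSPH1, HSP90AA1, DNAJC13 and DNAJB14 passed in opposite directions in the lines.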

How the results depend on the processing

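No member was called in any of the 4 SETDB1 comparisons under any alternative run: pseudocount 0.1, no filter on low values, an FPKM minimum of 5, quantile normalization, merged loci left out, each library left out and the replicate block. With the replicate block, 506, 391, 366 and 0 genes of the whole table passed in the mean of the KOs, KO1, KO2 and KO1 against KO2, against 407, 301, 302 and 0 without it.

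For BIX, calls rest on few ratios. Leaving out each background gave 2 to 12 members called across the others, 0 to 33 in U2OS, 0 to 33 in L929 and 0 to 22 for the difference between the lines. Without Vector or without ATG5 KD, 76 of 78 single calls were lost. In the fit with 1 mean per line, the spread then rests on the L929 pair alone. The lone U2OS ratio is assumed to vary like that pair. In the fit with a common mean, the spread rests on all remaining ratios. Without cGAS KO 18 of 80 were lost. Without a filter on low values 21 of 80 calls were lost and 9 members differed between the lines; with pseudocount 0.1, 7 of 80 were lost. Median centring lost 0 of 80, but it could not change a call, since the median ratio over all genes fitted was 0 in each background. Those genes include some expressed in 1 line only. Over genes at an FPKM of at least 1 in each line the median was 0.046, 0.044, -0.053 and -0.034 in Vector, ATG5 KD, cGAS WT and cGAS KO. No gene named with a call changed direction under these settings. Chosen after seeing the data, an FPKM of at least 1 in each line gave 18, 21, 26 and 11 members called of 42, that is 42.9%, 50.0%, 61.9% and 26.2% beside 33.5%, 45.4%, 53.8% and 25.5% of all genes. Centring changed 1 of these member counts, that in U2OS, to 23.

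For single values a limit of 1.5-fold in place of 2-fold gave 19 members in Vector, 22 in ATG5 KD, 15 in cGAS WT and 28 in cGAS KO for BIX, 3 for ATG5 KD against Vector with BIX, and 6 in mock and 14 with BIX for cGAS KO against WT. Pseudocount 0.1 gave 9 in ATG5 KD, 7 in cGAS WT and 8 for cGAS KO against WT with BIX, and an FPKM minimum of 5 gave 2 for the last. The shares of all genes at these settings were not computed, so the counts cannot be compared with those of other genes. Read totals are not given, so no counting error could be set beside an FPKM.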
